A study of Homo sapiens with 6 samples.

Results

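The inflammasome genes described here are CASP1, CASP4, NLRP1, NLRP3, PYCARD, CARD8, IL18 and GSDMD, taken from the gene table by their symbols. They are 8 of the 25838 genes in the table. RNA of childhood acute lymphoblastic leukaemia cells was sequenced in 3 libraries of Sup-PR, a prednisolone-resistant sub-clone, and 3 libraries of Sup-B15, its prednisolone-sensitive parental line, both grown in IMDM and untreated at the time of sampling. Prednisolone is a glucocorticoid, and caspase 1 is known to be able to cleave the glucocorticoid receptor, which gives a reason to ask how much of its mRNA and of its partners each line held. Sup-PR is 1 sub-clone set against 1 parental line. The design calls the libraries biological triplicates. Whether they came from separate cultures is not given in the sources used here, and the p-values then cover only differences among these 6 libraries, which could be technical.

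An inflammasome is a protein complex that forms in the cytosol when a sensor protein detects infection or damage. Sensors such as NLRP1, NLRP3 and CARD8 recruit caspase 1, NLRP1 and NLRP3 through the adapter ASC that PYCARD encodes, and caspase 1 then cleaves the cytokine precursors pro-IL-1β and pro-IL-18 and the pore-forming protein gasdermin D. Caspase 4 detects bacterial lipopolysaccharide directly and also cleaves gasdermin D, and the resulting pores can kill the cell by pyroptosis. The pathway is best known from macrophages, although CARD8 and caspase 1 can also drive pyroptosis in lymphocytes and in leukaemia cells.

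Of the 8 genes, 7 had enough counts to compare and IL18 did not. In Sup-PR the mRNAs of 3 of the 7 rose, CASP1, CASP4 and PYCARD, and those of 4 fell, the sensors NLRP1, NLRP3 and CARD8 and the pore gene GSDMD. NLRP1 was 2.10-fold lower and NLRP3 1.73-fold lower, while CASP1 was 1.46-fold higher. A gene is said here to have risen or fallen where the adjusted p of edgeR's quasi-likelihood test was under 0.05, and to be called where its fold change was also over 1.5. By the stricter rule edgeR called 2 of the 7 lower, NLRP1 and NLRP3, and 0 higher, as the 3 that rose stayed under 1.5-fold. DESeq2 and limma-voom called 0 higher and 2 lower as well. Over all 14869 genes tested, 23.0% were called, 7.53% higher and 15.4% lower, and 55.4% passed the adjusted p alone, 28.0% higher and 27.4% lower. The libraries of the lines did not overlap for any of the 7 genes, beside 61.1% of all genes tested. The median log2 fold change of the 7 was -0.41, against -0.01 for all genes tested.

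The libraries held 20112543 to 23608056 counts in Sup-PR and 16966569 to 26603422 counts in Sup-B15, and the 7 genes tested had 200 to 4748 counts in each library. No library of a line matched another within sampling noise. Both lines carried precursor B cell mRNAs: all 12 markers examined, among them PAX5, DNTT and VPREB1, passed the filter on low counts, with a summed level of 6866 to 7446 CPM (counts relative to library size) in Sup-PR and 8620 to 9576 CPM in Sup-B15. Of these 12, 8 fell and 0 rose. Because much of what is known of inflammasomes comes from myeloid cells, monocyte, macrophage and neutrophil markers were also examined. Their summed level was 5.30 to 7.99 CPM in Sup-PR and 7.10 to 10.9 CPM in Sup-B15, carried mostly by MPO and CSF1R. CSF1R fell, with 1.95 ± 0.482 CPM in Sup-PR and 3.84 ± 1.10 CPM in Sup-B15 (edgeR adjusted p = 0.0045), and MPO did not pass. CD14 had at most 11 counts and CD68 at most 3 counts in a library. CD163 had 6, 6 and 7 counts in Sup-PR and 0 in each Sup-B15 library. The 2 T cell markers analysed, CD5 and CD8A, summed to at most 0 counts in a Sup-PR library and 4 counts in a Sup-B15 library. LYZ, FCGR3A, S100A8, S100A9 and FCN1 were not analysed here, nor were the T cell markers CD3D, CD3E, CD3G, CD2, CD4 and TRAT1. The part of these markers in the values of the inflammasome genes was not tested. In bulk RNA, fewer cells with a transcript and less of it per cell cannot be told apart, which applies to every value below.

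CASP1 lies on chromosome 11 beside CARD16 and CARD17, which encode proteins that consist mainly of a caspase recruitment domain like that of caspase 1 and act as decoys for it. The starts of their coding sequences are shown because the likeness bears on how far reads can be assigned to CASP1 alone. They are the first 120 coding bases, 5′ to 3′, of the longest protein-coding transcript of each gene in GENCODE 29 (GRCh38, minus strand, with an intron inside each span), for CASP1 at chr11:105034362-105035113, for CARD16 at chr11:105044546-105045297 and for CARD17 at chr11:105100667-105101414. Capitals mark the bases that differ from CASP1.
CASP1: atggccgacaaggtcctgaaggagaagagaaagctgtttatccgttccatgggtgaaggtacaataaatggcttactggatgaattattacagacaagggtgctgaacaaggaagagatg
CARD16: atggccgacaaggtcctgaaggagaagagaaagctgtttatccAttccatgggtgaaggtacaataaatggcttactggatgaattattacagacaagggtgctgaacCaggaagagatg
CARD17: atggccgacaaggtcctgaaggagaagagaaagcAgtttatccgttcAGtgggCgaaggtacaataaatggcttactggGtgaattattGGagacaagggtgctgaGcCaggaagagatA

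CARD16 differed from CASP1 at 2 of these bases, G44A and A109C, with the CASP1 base given first and positions counted from 1 at the A of the start codon. CARD17 differed at 10. Over the 269 bases before the coding sequences of CASP1 and CARD16 diverge, they were 98.88% identical, and CARD17 was 90.91% identical to CASP1 over its 330 coding bases. Over all annotated transcripts, 180 of the 4123 stretches of 50 bases in CASP1 (4.366%) also occur in CARD16, where they make up 10.55% of its 1706 stretches. For stretches of 100 bases the number shared was 52. CASP4 shared no stretch of 50 bases with CASP1. Reads from the shared stretches can match both genes, and the values of CASP1 and CARD16 are uncertain to that extent.

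The sensors come first in the pathway. NLRP1 (ENSG00000091592, chromosome 17, 5499427 to 5619424, minus strand) encodes a sensor held in check by the peptidases DPP8 and DPP9, and activated by certain proteases, by double-stranded RNA and by ribosome stress. Its level in CPM (counts relative to library size, scaled by edgeR's TMM factors) was 23.7, 20.4 and 17.6 in Sup-PR and 44.9, 43.0 and 41.1 in Sup-B15. Every Sup-PR library lay far below the lowest Sup-B15 library. The means were 20.5 ± 3.05 CPM in Sup-PR and 43.0 ± 1.90 CPM in Sup-B15 (SD, n = 3 each), and the log2 fold change was -1.07 with a standard error of 0.09 (95% interval -1.27 to -0.86, edgeR adjusted p = 6.0e-07). This was the largest difference among the 7 genes, and NLRP1 mRNA was 2.10-fold lower in Sup-PR. It was also the only one of the 7 that passed when edgeR tested against a fold change of 1.5 instead of against no change.

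NLRP3 (ENSG00000162711, chromosome 1, 247416156 to 247449108, plus strand) encodes the most widely studied sensor, which responds to potassium efflux and many forms of cell damage. It measured 15.3, 11.7 and 12.9 CPM in Sup-PR, against 22.8, 21.8 and 24.1 CPM in Sup-B15. The highest Sup-PR library lay well under the lowest Sup-B15 library, and the spread within each line was small beside the gap. The log2 fold change was -0.79 (standard error 0.10, 95% interval -1.01 to -0.57, edgeR adjusted p = 2.0e-05), or 1.73-fold lower in Sup-PR. Against a fold change of 1.5 its edgeR adjusted p was 0.070.

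CARD8 (ENSG00000105483, chromosome 19, 48180770 to 48255946, minus strand) encodes a sensor related to NLRP1 that recruits caspase 1 without ASC, is also held by DPP9, and is the route by which DPP8/9 inhibitors kill lymphocytes and myeloid leukaemia cells. Its level was 78.1, 62.8 and 68.0 CPM in Sup-PR, against 103, 107 and 98.3 CPM in Sup-B15. Replicate 1 was the highest of the Sup-PR libraries for all 3 sensors, and the lines still did not overlap. CARD8 fell by 0.57 on the log2 scale (standard error 0.07, 95% interval -0.72 to -0.41, edgeR adjusted p = 2.1e-05), which is 1.48-fold lower and just short of the fold for a call. It was called in 5 of the other settings. These were the fits without Sup-PR replicate 1 (log2 fold change -0.66) and without Sup-B15 replicate 3 (-0.61). With all libraries kept, they were upper-quartile scaling (-0.62), no scaling (-0.64) and at least 10 counts in every library (-0.59). Several genes overlap CARD8, and how counting treated strand is not given in the sources used here. CARD8-AS1, antisense over 272 of its bases, had 10.8 ± 1.31 CPM in Sup-PR and 13.3 ± 1.90 CPM in Sup-B15 (log2 fold change -0.30, edgeR adjusted p = 0.054). It passed the threshold in 8 of the other settings, among them without Sup-PR replicate 3 (edgeR adjusted p = 0.022), without Sup-B15 replicate 1 (0.019) and with upper-quartile scaling (0.023). ZSWIM9, antisense over 16851 bases, had a log2 fold change of -0.08 (edgeR adjusted p = 0.37). Their part in the CARD8 value was not tested.

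**Figure D1:**
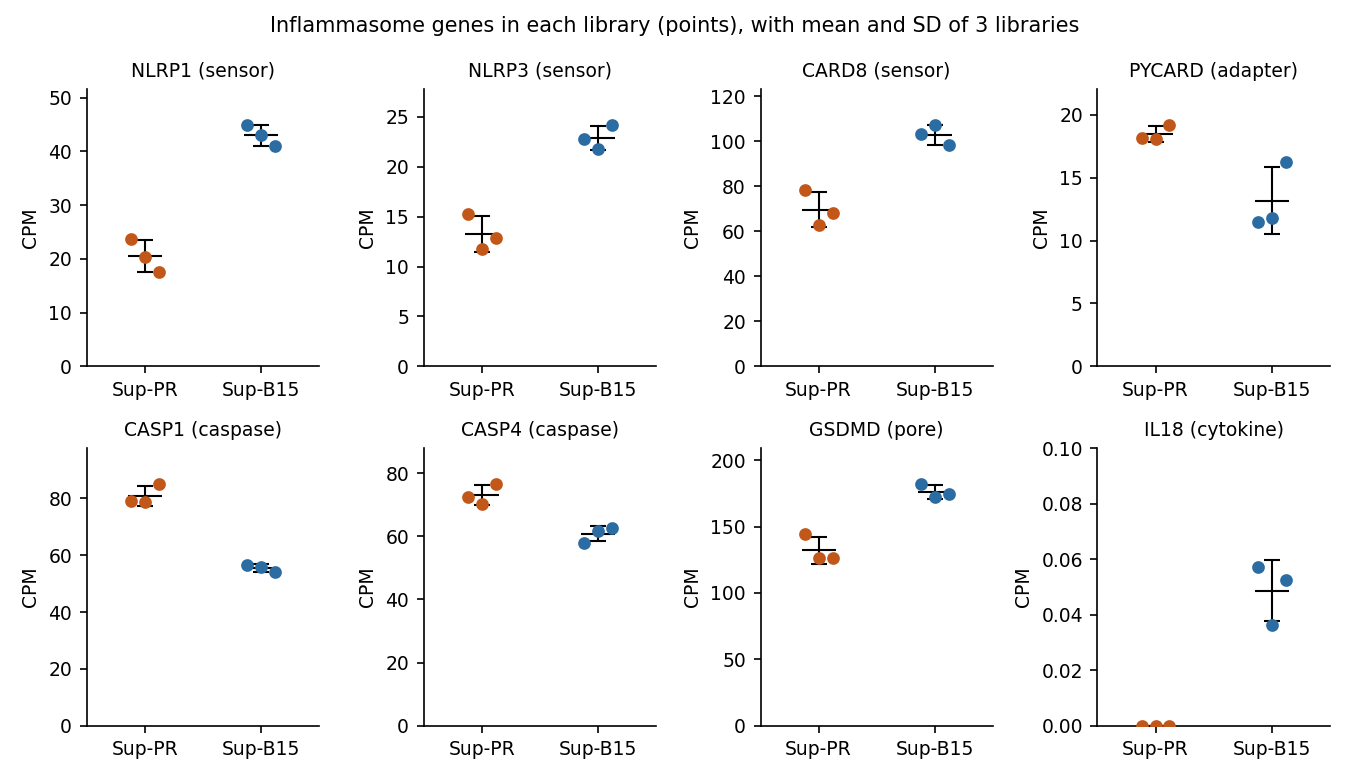
Level of each of the 8 genes in CPM (vertical axis, starting at 0, a separate scale per gene) in the 3 Sup-PR and 3 Sup-B15 libraries; points are libraries, bars the mean and SD. The sensors NLRP1, NLRP3 and CARD8 and the pore gene GSDMD are lower in every Sup-PR library, PYCARD, CASP1 and CASP4 are higher in every one, and IL18 has 1 count in each Sup-B15 library and 0 in Sup-PR.

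PYCARD (ENSG00000103490, chromosome 16, 31201485 to 31203450, minus strand) encodes ASC, the adapter that links a sensor to caspase 1 and builds the filaments seen as specks in activated cells. It measured 18.1, 18.0 and 19.2 CPM in Sup-PR, against 11.5, 11.8 and 16.3 CPM in Sup-B15. The Sup-PR libraries lay close together, whereas Sup-B15 replicate 3 stood above the other 2 of its line and near the Sup-PR values. The log2 fold change was 0.49 (standard error 0.12, 95% interval 0.23 to 0.75, edgeR adjusted p = 0.0035), or 1.40-fold higher, with the widest interval of the 7 genes. Without Sup-B15 replicate 3 it was 0.65 (edgeR adjusted p = 5.0e-05), and PYCARD was then called higher. Its antisense gene PYCARD-AS1, which covers 1566 bases of the locus, had at most 2 counts in any library.

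CASP1 (ENSG00000137752, chromosome 11, 105025443 to 105035250, minus strand) encodes caspase 1, the protease at the centre of the complex. It measured 79.2, 78.6 and 84.9 CPM in Sup-PR, against 56.5, 55.9 and 54.1 CPM in Sup-B15. The 3 libraries of each line lay within a narrow band, and the bands were far apart relative to their width. Means were 80.9 ± 3.48 CPM in Sup-PR and 55.5 ± 1.27 CPM in Sup-B15 (SD, n = 3 each), and the log2 fold change was 0.54 (standard error 0.06, 95% interval 0.42 to 0.67, edgeR adjusted p = 2.9e-06). The interval reaches past the fold for a call, and the estimate of 1.46-fold does not. When the counts of CASP1, CARD16 and CARD17 were added into 1 gene, an alternative chosen after seeing the data, the log2 fold change was 0.64 and this sum was called higher.

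CASP4 (ENSG00000196954, chromosome 11, 104942866 to 104969436, minus strand) encodes the human caspase that binds lipopolysaccharide in the cytosol and starts the noncanonical pathway. Its level was 72.5, 70.3 and 76.5 CPM in Sup-PR, against 58.1, 61.9 and 62.6 CPM in Sup-B15. The lines did not overlap, but their means differed by the smallest ratio among the 7 genes. CASP4 rose by 0.26 on the log2 scale (standard error 0.06, 95% interval 0.14 to 0.39, edgeR adjusted p = 0.0017), a 1.20-fold difference.

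GSDMD (ENSG00000104518, chromosome 8, 143553207 to 143563062, plus strand) encodes gasdermin D, the substrate whose cleaved part forms the pore. It had 144, 126 and 126 CPM in Sup-PR, against 182, 172 and 174 CPM in Sup-B15. As for the sensors, replicate 1 was the highest Sup-PR library and remained under all Sup-B15 libraries. The log2 fold change was -0.41 (standard error 0.06, 95% interval -0.54 to -0.29, edgeR adjusted p = 5.0e-05), or 1.33-fold lower in Sup-PR, so the enzyme and its pore-forming substrate moved in opposite directions.

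IL18 (ENSG00000150782, chromosome 11, 112143251 to 112164117, minus strand) encodes pro-IL-18, a cytokine precursor that caspase 1 activates. It had 0 counts in each Sup-PR library and 1 count in each Sup-B15 library, which is 0 counts against 3 counts in all. Counting error alone allows up to 3.69 counts for Sup-PR and 0.619 to 8.77 counts for Sup-B15 (exact Poisson, 95%). Both lines are thus at or under a floor of 3 counts, 0.0448 CPM in Sup-PR and 0.0480 CPM in Sup-B15, and no fold change is given. IL18 mRNA was at the limit of detection in both lines, and a difference was not detectable at this depth.

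**Figure D2:**
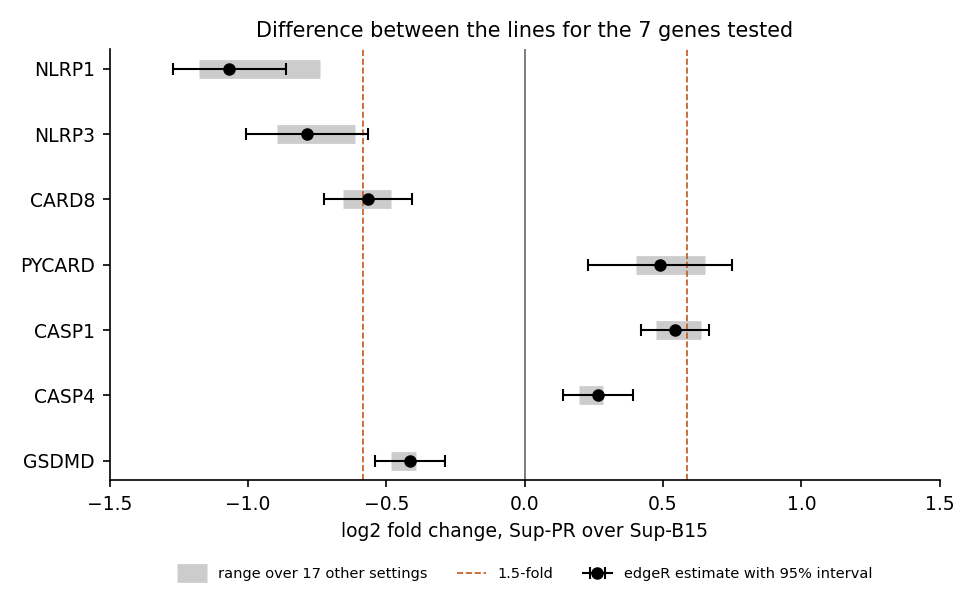
Log2 fold change of the 7 genes tested (horizontal axis, Sup-PR over Sup-B15; positive is higher in Sup-PR): points are edgeR estimates, thin bars their 95% intervals, grey bars the range under 17 other settings, dashed lines a 1.5-fold change. NLRP1 at -1.07 and NLRP3 at -0.79 lie beyond the dashed line under every setting, and CASP1 at 0.54 and CARD8 at -0.57 lie beside it.

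Levels of different genes can be compared only per length, in the deposited FPKM (counts divided by gene length and by library size). In Sup-PR the order of mean FPKM was GSDMD at 25.7, CASP1 at 21.8, PYCARD at 11.1, CASP4 at 10.04, CARD8 at 5.37, NLRP3 at 2.78 and NLRP1 at 1.60, with IL18 at 0. No neighbouring genes in that order overlapped in range. In Sup-B15 the order was GSDMD at 34.1, CASP1 at 14.9, CASP4 at 8.30, CARD8 at 7.89, PYCARD at 7.85, NLRP3 at 4.76, NLRP1 at 3.32 and IL18 at 0.0183. There, CASP4 and CARD8 overlapped in range, as did CARD8 and PYCARD, so these neighbours are not ordered. The enzyme, its substrate and the adapter were therefore more abundant per length in each line than NLRP3 and NLRP1. This order rests on the deposited gene lengths, such as 12808 bases for NLRP1 and 1661 bases for PYCARD, and other lengths were not tried. Before division by length, NLRP1 had 43.0 CPM and PYCARD 13.2 CPM in Sup-B15. Gasdermin D mRNA was 1.32, 1.16 and 1.07 times that of CASP1 in the Sup-PR libraries and 2.33, 2.23 and 2.33 times in the Sup-B15 libraries, with no overlap.

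**Figure D3:**
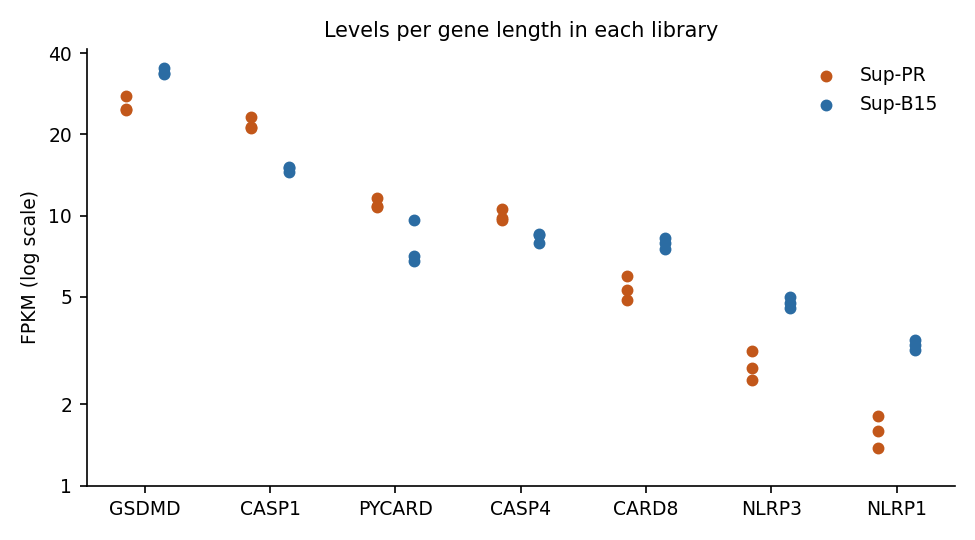
Deposited FPKM of the 7 genes tested (vertical axis, log scale) in each library, ordered by mean level in Sup-PR, with Sup-PR to the left of Sup-B15 for each gene. GSDMD and CASP1 lead in both lines and come closer together in Sup-PR, and NLRP3 and NLRP1 are lowest in both; IL18, at 0 in Sup-PR, is not drawn.

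The caspase and decoy genes tested in the cluster around CASP1 on chromosome 11 rose, as CASP1 did. Of 5 other caspase and decoy genes of this locus listed from general knowledge, 3 were tested, CARD16, CARD17 and CASP12, and all 3 were called higher. CARD16 measured 25.1, 30.2 and 27.9 CPM in Sup-PR, against 14.6, 15.2 and 14.8 CPM in Sup-B15, a log2 fold change of 0.90 (standard error 0.09, edgeR adjusted p = 1.5e-06). CARD17 had few counts, 18, 21 and 38 counts in Sup-PR and 7, 4 and 5 counts in Sup-B15, and its log2 fold change was 2.19 (standard error 0.45, edgeR adjusted p = 0.0010). The annotated span of CARD16 contains that of CARD17 on the same strand, so their reads are not separated with certainty. CASP12, a gene inactive in most people, had 12, 28 and 10 counts in Sup-PR and 8, 3 and 7 counts in Sup-B15, and these overlap as CPM. Its log2 fold change of 1.39 (edgeR adjusted p = 0.043) was lost without Sup-B15 replicate 2 (adjusted p = 0.21), without Sup-B15 replicate 3 (0.053), with upper-quartile scaling (0.052), with no scaling (0.056) and with DESeq2 (0.12). Without Sup-PR replicate 2 it did not pass the filter on low counts. CASP5, the close relative of CASP4, had 4, 1 and 0 counts in Sup-PR and 0, 0 and 1 counts in Sup-B15 and was too low to compare.

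**Figure D4:**
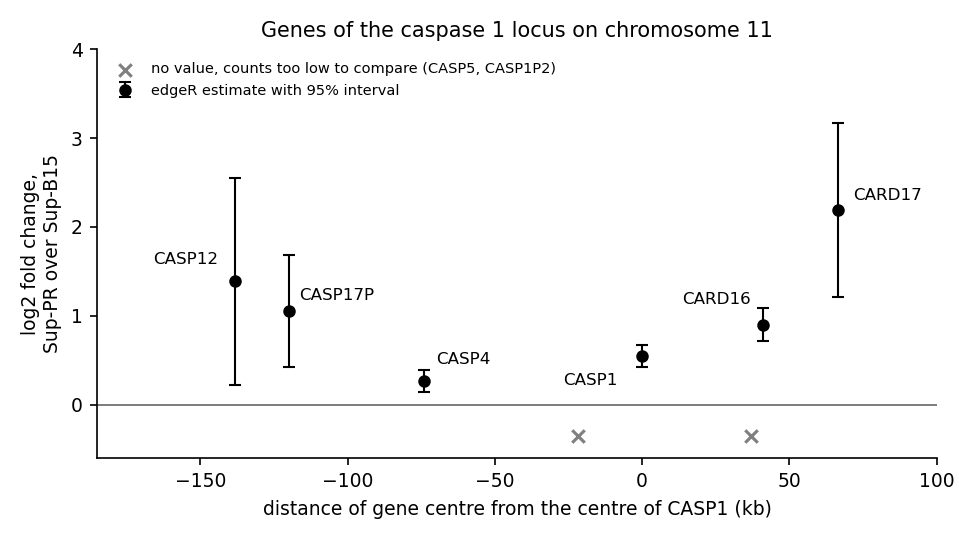
Log2 fold change (vertical axis, Sup-PR over Sup-B15, with 95% interval) of the genes within 200 kb of CASP1, placed by the distance of their centre from that of CASP1 in kb (horizontal axis). All 6 genes with a value are above 0, CASP4 least at 0.26 and CARD17 most at 2.19; crosses mark genes too low to compare, and the pseudogene CASP17P was added after its value was seen.

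Among other inflammasome sensors, 4 of 13 listed genes were tested, of which 1 rose, 2 fell and 1 did not pass. PYHIN1, of the family of nuclear DNA sensors, had 36, 52 and 60 counts in Sup-PR and 7, 7 and 12 counts in Sup-B15 (log2 fold change 2.44, edgeR adjusted p = 4.5e-05). NLRP6, a sensor best known from the intestine, fell by 1.51 (edgeR adjusted p = 4.6e-05), and its highest library in either line was 4.60 CPM. IFI16, a DNA sensor, had most counts of them, with 222 ± 13.0 CPM in Sup-PR and 273 ± 8.50 CPM in Sup-B15 (log2 fold change -0.30). NAIP, a sensor of bacterial proteins, had a log2 fold change of -1.03 with a standard error of 0.59 and did not pass (edgeR adjusted p = 0.17). NLRC4, which works with NAIP, had at most 8 counts and NLRP12 at most 6 counts in a library. The median log2 fold change of the 4 was -0.66.

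Of 15 regulators of NLRP1, CARD8 and NLRP3, 13 were tested, 6 rose, 4 fell and 3 did not pass, with a median log2 fold change of 0.13. The brakes on NLRP1 and CARD8 moved little: DPP8 had 116 ± 2.84 CPM in Sup-PR and 104 ± 2.88 CPM in Sup-B15 (log2 fold change 0.15, edgeR adjusted p = 0.023), and DPP9 had a log2 fold change of 0.13 (edgeR adjusted p = 0.059). MAP3K20, the kinase of the ribosome stress response that acts on NLRP1, rose by 0.32. The partners of NLRP3 differed among themselves. NEK7, the kinase that NLRP3 needs, fell by 0.40, and P2RX7, the ATP-gated channel upstream of it, fell by 0.73. TXNIP, which binds NLRP3 when released from thioredoxin, had 30.3, 31.4 and 32.6 CPM in Sup-PR and 57.1, 59.1 and 58.1 CPM in Sup-B15 (log2 fold change -0.88, edgeR adjusted p = 5.5e-08). Thioredoxin itself (TXN) rose by 0.78 and the chaperone gene HSP90AB1 by 0.68. The guanylate-binding proteins, known for their action on bacterial lipopolysaccharide, split: GBP2 rose by 0.64 and GBP5 fell by 1.03. BRCC3, which removes ubiquitin from NLRP3, and SUGT1, a co-chaperone of NLR proteins, had edgeR adjusted p-values of 1.0 and 0.73.

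On the cytokine side, 7 of 14 interleukin 1 family genes were tested, of which 1 rose, 4 fell and 2 did not pass. IL1B, whose product is the other main cytokine substrate of caspase 1, measured 49.9, 59.8 and 59.0 CPM in Sup-PR, against 91.7, 98.0 and 107.7 CPM in Sup-B15. Unlike IL18, it was plainly present in both lines, and it was lower in every Sup-PR library (log2 fold change -0.82, standard error 0.08, edgeR adjusted p = 1.2e-06). IL1A had 2 counts in Sup-PR, both in replicate 2, and 106 counts in Sup-B15, so the count per library size was 54.0 times as high in Sup-B15, with a 95% counting interval of 14.6 to 452. IL1RAP, the shared receptor chain for interleukin 1, was the gene that rose, at 24.5 ± 1.75 CPM in Sup-PR and 7.50 ± 0.743 CPM in Sup-B15 (log2 fold change 1.70, edgeR adjusted p = 1.3e-08). The primary receptor gene IL1R1 and IL18R1, which encodes the IL-18 receptor, had at most 31 and 24 counts in a library and did not pass. SIGIRR, an inhibitory receptor, fell by 0.64, and IL18BP, which binds and blocks IL-18, fell by 0.58. The median log2 fold change of these 7 genes was -0.58.

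The other gasdermins changed in the same direction as GSDMD where they passed. Of 7 listed genes of pore formation and membrane rupture, 5 were tested, 2 were called lower, 1 rose and 2 did not pass. GSDME, the gasdermin cut by caspase 3, measured 124, 140 and 145 CPM in Sup-PR, against 289, 292 and 295 CPM in Sup-B15, and fell by 1.10 (edgeR adjusted p = 4.7e-09). The 3 Sup-B15 libraries lay within a few CPM of each other, and no Sup-PR library came near them. GSDMB fell by 1.02 (edgeR adjusted p = 0.0049), with libraries of 12.5, 7.48 and 6.45 CPM in Sup-PR and 19.2, 19.6 and 14.0 CPM in Sup-B15. NINJ1, which ruptures the plasma membrane after the pores have formed, rose by 0.33. The median log2 fold change of the 5 was -0.68.

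Of 9 transcription factors reported to act on these genes, 8 were tested: 4 rose, 3 fell and 1 did not pass, with a median log2 fold change of -0.02. SPI1, which encodes the myeloid and B cell factor PU.1, had 2.96, 3.69 and 2.82 CPM in Sup-PR and 14.3, 12.3 and 16.4 CPM in Sup-B15 (log2 fold change -2.17, edgeR adjusted p = 5.9e-08). IRF1, an interferon response factor, rose by 0.15, RELA, a subunit of NF-κB, rose by 0.13, and IRF8, a factor of myeloid and B cells, fell by 0.22. NFKB1 rose by 0.18 and missed the threshold without Sup-PR replicate 2 (edgeR adjusted p = 0.057), with upper-quartile scaling (0.068) and with no scaling (0.11).

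**Figure D5:**
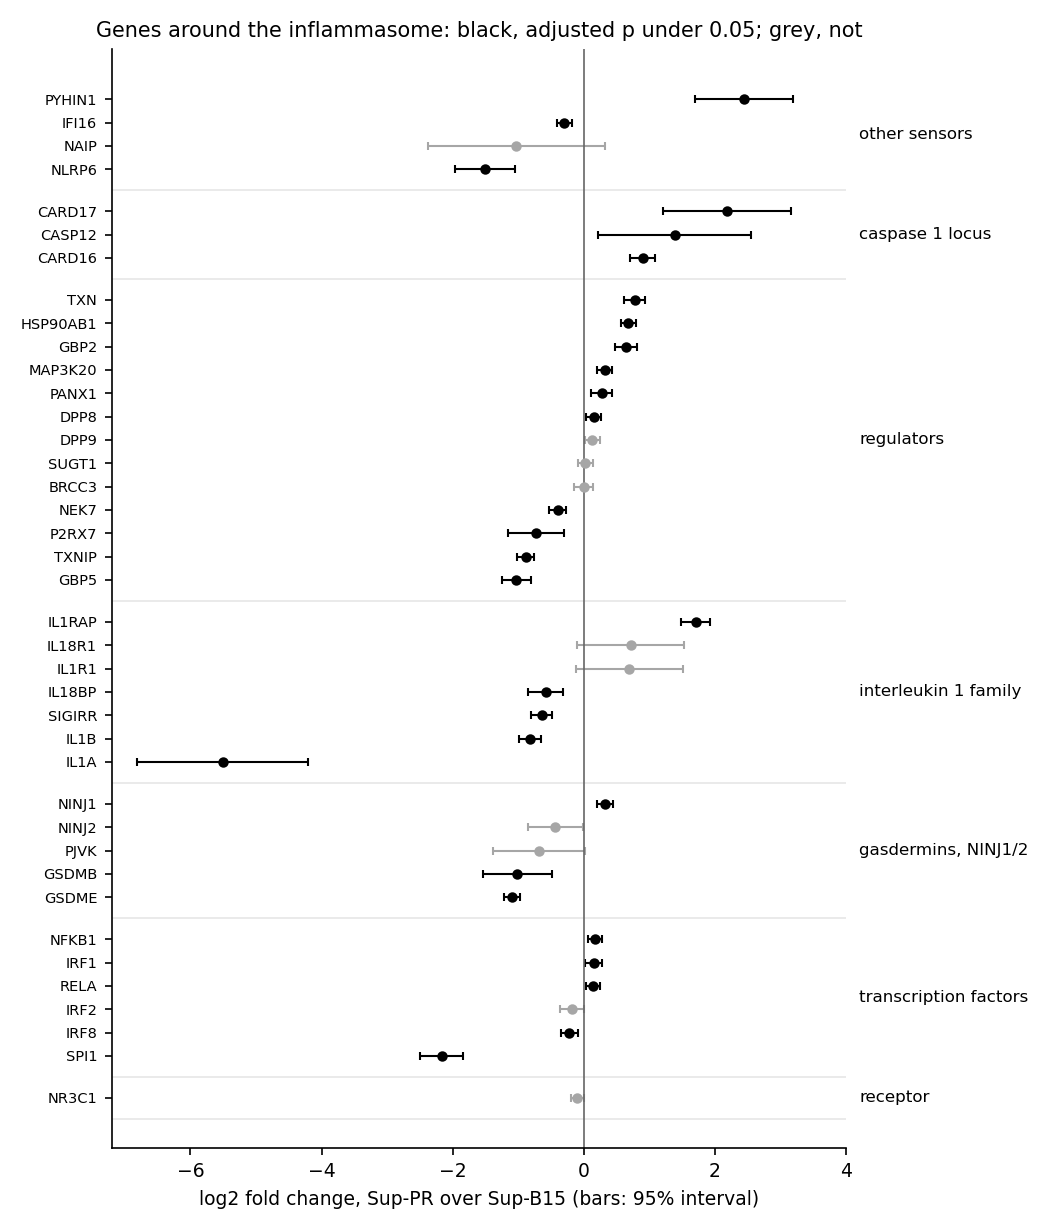
Log2 fold change (horizontal axis, Sup-PR over Sup-B15, bars are 95% intervals) of the other sensors, genes of the caspase 1 locus, regulators, interleukin 1 family, gasdermins, transcription factors (6 of the 8) and the glucocorticoid receptor that were tested; black points have an edgeR adjusted p under 0.05, grey points do not. The caspase 1 locus lies to the right of 0, IL1B, GSDME and SPI1 to the left at -0.82, -1.10 and -2.17, and the regulators lie on both sides; the IL1A estimate rests on 2 counts in Sup-PR.

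NR3C1, the gene of the glucocorticoid receptor that caspase 1 can cleave, measured 278, 281 and 283 CPM in Sup-PR, against 302, 306 and 294 CPM in Sup-B15. The libraries did not overlap, but the difference was small, a log2 fold change of -0.10 with a standard error of 0.05 (95% interval -0.20 to 0.00, edgeR adjusted p = 0.084). It passed the threshold in 5 of the other settings, among them with upper-quartile scaling (edgeR adjusted p = 0.0096) and without Sup-B15 replicate 3 (0.026). Protein levels, caspase activity and receptor cleavage were not measured by these libraries.

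The genes whose pattern over the 6 libraries was most like that of CASP1 were sought by the Euclidean distance between centred log2 CPM values, among 11859 other protein-coding genes tested. HLTF, a DNA translocase of replication repair, was nearest at 0.04, followed by NUS1, a subunit of the enzyme for dolichol synthesis, at 0.06, and NFE2L2, the factor NRF2 of the oxidative stress response, at 0.06. The median distance of all genes compared was 0.73. Their log2 fold changes were 0.56, 0.52 and 0.56, and being close to that of CASP1 follows from how they were chosen.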

How the data were processed

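A NEBNext Ultra kit was used for the 6 libraries, which were read as pairs, and the submitters' processing notes name CASAVA, HISAT2, DESeq2 and GRCh38.p12. How reads were assigned to genes, by which annotation and with or without strand, is not given in the sources used here. The coordinates of all 8 genes equal those of GENCODE 29. The authors deposited raw counts per gene, FPKM, and a signal column in which the counts are divided by a size factor per library. The deposited log2 fold change, p-value and adjusted p are the authors' own comparison and were not used, and 0 columns of per-sample values were without a sample.

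The counts were filtered with filterByExpr, scaled by TMM and tested by edgeR's quasi-likelihood test (glmQLFit with robust estimation, glmQLFTest), with Benjamini-Hochberg adjustment over the 14869 genes tested. Standard errors are the log2 fold change divided by the square root of F. The procedure was run on simulated counts in which every gene had the same biological variation, so it is no check for genes that vary more. The 8 genes, the gene lists and the tests were chosen with earlier results of these data known. All 8 genes are named, then from each list those called or otherwise needed to describe it, the overlapping genes, NR3C1 and the 3 genes nearest to CASP1 in pattern. Other settings were edgeR with RLE, upper-quartile or no scaling, no filter or at least 10 counts in every library, DESeq2, limma on FPKM, each library left out and the replicate number as a block. The exact Poisson limits of IL18, the counting interval of IL1A and the floors cover counting error only. The intervals of the log2 fold changes come from the edgeR fit and its standard errors, and also cover the spread among libraries. Software was R 4.3.3 (edgeR 4.0.16, DESeq2 1.42.0, limma 3.58.1) and Python 3.11.15 (SciPy 1.17.1, pandas 2.3.3). Some genes of the lists are counted but not reported here by name. The other cell lines and the metabolite measurements of the study were not analysed here.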

Additional observations from a re-analysis of the deposited data

How the results depend on the processing

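The 7 inflammasome genes tested kept their direction and an adjusted p under 0.05 in all 119 combinations of gene and setting, 17 settings for each gene, which covered DESeq2, limma-voom, limma on FPKM, other scalings and filters, the replicate block, each library left out and the added counts of CASP1, CARD16 and CARD17. Over these settings the log2 fold change was 0.47 to 0.64 for CASP1, 0.19 to 0.28 for CASP4, 0.40 to 0.65 for PYCARD, -1.18 to -0.74 for NLRP1, -0.89 to -0.61 for NLRP3, -0.66 to -0.48 for CARD8 and -0.48 to -0.39 for GSDMD, and the largest adjusted p was 0.027, for PYCARD. What changed was the side of the 1.5-fold limit. CARD8 passed it in 5 settings, and PYCARD and CASP1 in 1 each.

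With the adjusted p alone, 3 of the genes were higher and 4 lower, beside 4168 and 4069 of all genes. Tested by edgeR against a fold change of 1.5, 0 were higher and 1, NLRP1, was lower, beside 484 and 1318 of all genes. With limma on log2(FPKM + 1), 631 of all genes were called higher and 943 lower, and on log2(FPKM + 0.1) 1290 were called lower. Adding the counts of CASP1, CARD16 and CARD17 gave 1 gene called higher. With each library left out, 0 to 1 of the 7 genes were called higher and 2 to 3 lower, and 1000 to 1206 of all genes higher and 2065 to 2599 lower. Library 3 of Sup-B15 gave the 1 gene higher, PYCARD.

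Whether the replicate numbers pair the libraries was not settled. The deviations of same-numbered libraries correlated at 0.13, -0.06 and 0.20, and those of differently numbered libraries at -0.25 to 0.15. The highest value was that of the libraries numbered 3, while Sup-B15 replicate 2 was closest to Sup-PR replicate 1. Deviations from the mean of only 3 libraries depend on each other, so these correlations cannot decide the question. With the replicate number as a block, 1134 genes were called higher and 2376 lower, 0 and 2 of the inflammasome genes among them, and the edgeR adjusted p of NR3C1 was 0.027.

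Depth limits IL18, CASP5, CASP12 and CARD17, whose counts were few, and the comparison of 1 sub-clone with 1 parental line cannot separate resistance from any other difference between them.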

Other observations

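Genes on both sides of the caspase cluster were examined after their values had been seen, within 2 Mb of CASP1 on chromosome 11. Of 15 genes tested there, 9 rose in Sup-PR, 1 fell and 5 did not pass. Of the 9, 6 are genes of the caspase cluster around which the window was drawn. The 1 that fell and the 5 that did not pass all lay outside that cluster. Over all genes tested, 28.0% rose and 27.4% fell. The 9 of 15 cannot be set against these shares, because the window was centred on genes already seen to rise. CASP1, CARD16 and CARD17, which are among the 9, are not fully separate in sequence or span. Whether the region changed as a whole was not tested. Besides the 6 genes of the cluster, DCUN1D5, which acts in cullin neddylation, had 55.6 CPM in Sup-PR and 36.7 CPM in Sup-B15 on average (log2 fold change 0.60, edgeR adjusted p = 1.7e-05), MSANTD4 rose by 0.66 and AASDHPPT, the enzyme that activates carrier proteins with phosphopantetheine, rose by 0.39. PDGFD, a platelet-derived growth factor gene between the cluster and DYNC2H1, was the 1 gene that fell. It had 0 counts in each Sup-PR library, against 114, 127 and 109 counts in the Sup-B15 libraries, so it was at least 119-fold lower in Sup-PR when 3 counts are taken as the limit for its libraries together.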
